A study of Mus musculus with 33 samples.

Results

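The Hox cluster genes are the 38 genes on the 30-array bead platform whose symbol is Hox followed by a cluster letter from a to d and a paralogue number. They were chosen by symbol alone, out of 16593 genes named on that platform, and were read by 50 probes. Clusters A and B gave 10 genes each and clusters C and D gave 9 each. Total RNA of mouse cells was hybridised to 33 arrays in 11 groups of 3. Untreated mouse embryonic fibroblasts (MEF) were compared with fibroblasts given RepSox for 1 week. RepSox is a small-molecule inhibitor of the type I receptor for transforming growth factor beta. OKMS6 is a line of partially reprogrammed cells derived from fibroblasts after viral transduction. Its label gives viral Sox2 as the genetic change. It was profiled without and with RepSox at 10, 24 and 48 h. R1 and V6.5 are mouse embryonic stem cell lines. The last group was an induced pluripotent stem (iPS) cell line derived with RepSox in place of viral Sox2, measured on another platform that names 36 Hox genes, so its values were set beside the rest with no test. For the untreated fibroblasts no time is stated. Cultures were grown with or without irradiated fibroblast feeders, and the labels do not say which had them. OKMS6, R1, V6.5 and the iPS cells are each 1 line. Nothing states that replicates were separate cultures, so a p-value reflects array-to-array spread that may be technical alone.

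Hox genes encode homeodomain transcription factors that give cells their position along the body axis and along the limb. They lie in clusters in the order of the body regions they pattern, low paralogue numbers for the head end and high ones for the tail and the limb tips. Fibroblasts keep the Hox pattern of the body site they came from, whereas in embryonic stem cells the clusters are held silent by Polycomb repressors and poised for later use.

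Levels are log2 intensities after background correction and quantile normalization, and a gene was called detected on an array at a detection p under 0.05 for any of its probes. Of the 33 arrays, V6.5 replicates 1 and 3 stood apart. Their mean signal was 66.6 and 79.5, against 94.9 to 429 on the other 28 arrays of the platform, and 28.7% to 31.4% of probes were detected on them against 43.8% to 52%. V6.5 was therefore described but left out of every test. The fibroblast arrays were dimmer too, at 94.9 to 113 before normalization, whereas R1 lay at 374 to 429 and OKMS6 at 147 to 327. Signal and cell type cannot be told apart in the comparisons with MEF. The labelled cell types carried their defining markers. All 10 stem cell markers were detected on the 3 R1 arrays, and 9 of the 10 were on no MEF array. On the MEF arrays 11 of 12 fibroblast markers were detected, all but Postn. OKMS6 at 10 h had 5 of the 10 stem cell markers, with Nanog, Esrrb, Dppa5a and Dppa4 on no array.

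More Hox genes were detected in the fibroblast groups than in any other. In MEF 22 of 38 Hox genes were detected on all 3 arrays (57.9%), beside 46.9% of all genes named on the platform. They came from every cluster, 6 of 10 from A, 7 of 10 from B, 3 of 9 from C and 6 of 9 from D. By paralogue number, 3 of 7 genes numbered 1 to 3 were detected, 9 of 15 numbered 4 to 8 and 10 of 16 numbered 9 to 13. After 1 week of RepSox the count was again 22 (background 48.8%), with Hoxc13 in and Hoxd12 out.

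R1 stem cells had 10 of the 38 Hox genes on all 3 arrays (background 49.9%), namely Hoxa2, Hoxa5, Hoxa7, Hoxb4, Hoxb5, Hoxb7, Hoxc6, Hoxc10, Hoxd8 and Hoxd9. Of these, 7 carry a paralogue number from 4 to 8. At a detection p under 0.01 only 4 of the 10 held, Hoxa5, Hoxb7, Hoxc6 and Hoxd8, while MEF still had 21. V6.5 had 6 (background 30.4%). Untreated OKMS6 cells had 6 Hox genes at 10 h (background 44.6%), 7 at 24 h (46.2%) and 6 at 48 h (47.5%). With RepSox they had 6 at 10 h (45.4%), 5 at 24 h (44.9%) and 4 at 48 h (46.1%). Hoxa5, Hoxa7, Hoxa13 and Hoxb4 were detected on all 3 arrays of every OKMS6 group. At a detection p under 0.01 this held for 2 of them, Hoxa5 and Hoxa7. No gene of cluster D was detected on all 3 arrays of any OKMS6 group, and in MEF there were 6. Of the 22 genes of MEF, 10 were on no OKMS6 array (Hoxa11, Hoxb2, Hoxb6, Hoxb7, Hoxb9, Hoxc9, Hoxd4, Hoxd10, Hoxd12 and Hoxd13), and 6 of those, Hoxa11, Hoxb6, Hoxd4, Hoxd10, Hoxd12 and Hoxd13, were on no array outside the fibroblast groups. The counts over several groups and those at a detection p under 0.01 were not made over all genes. They are a description and say nothing of the Hox genes in particular. In these bulk samples fewer cells expressing a gene and less RNA per cell cannot be told apart.

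Another 11 members were detected on none of the 30 arrays, a count not made over all genes. They are Hoxa3, Hoxa6, Hoxa10, Hoxb1, Hoxb8, Hoxb13, Hoxc5, Hoxc8, Hoxc11, Hoxc12 and Hoxd1. Hoxa4, Hoxd3 and Hoxd11 were detected on single arrays or pairs, but on all 3 arrays of no group.

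**Figure D1:**
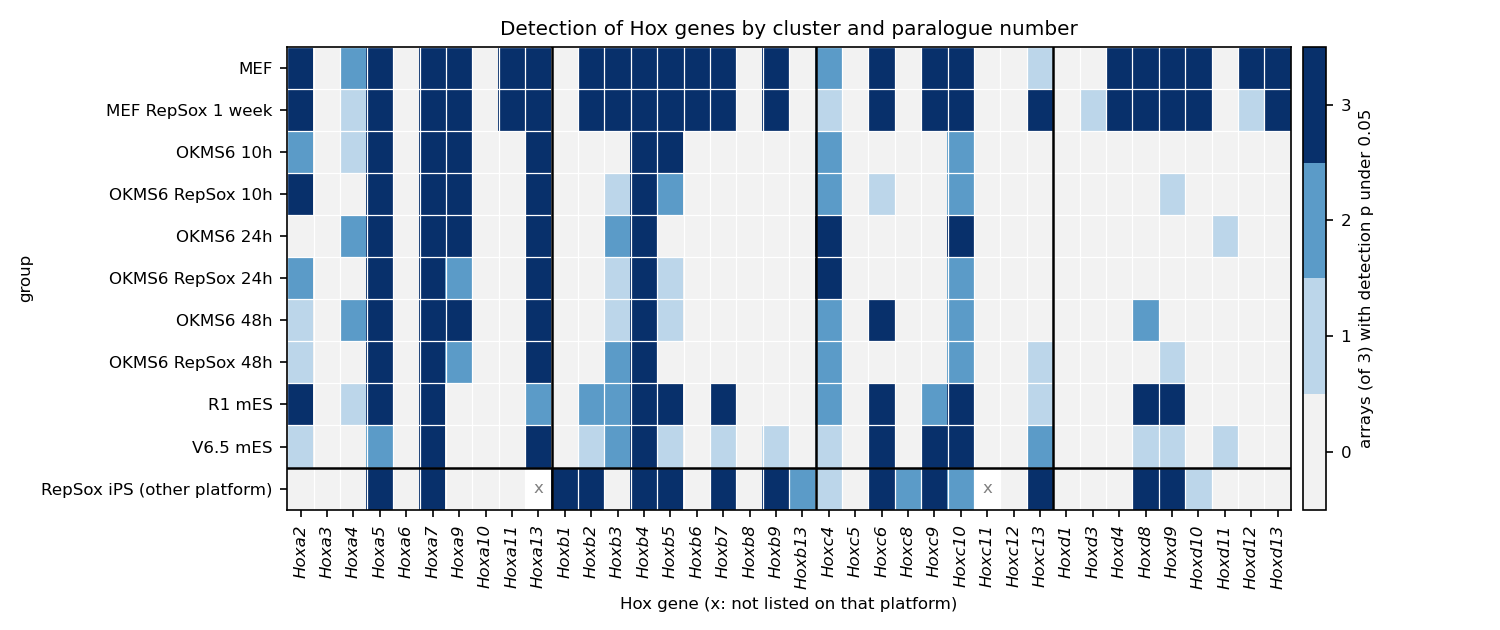
Number of arrays, of 3 per group, on which each Hox gene (columns, by cluster and paralogue number) was detected at a detection p under 0.05 by any probe. MEF rows are dark for 22 genes across all clusters, and in the 6 OKMS6 groups only Hoxa5, Hoxa7, Hoxa13 and Hoxb4 are dark throughout, with no dark cell in cluster D.

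In R1 stem cells 23 of the 38 Hox genes were lower than in MEF and 0 were higher (limma, Benjamini-Hochberg adjusted p under 0.05 over all 10614 genes tested). Of the 10614 genes tested 70.1% were called, 34.3% lower and 35.9% higher. The 38 members included 25 that passed the detection filter and were tested, so the counts over 38 given here and below and the shares of all genes tested do not have the same kind of denominator. A member that passed only through the fibroblasts had to differ, so the count, the median and the differences of such members are a description. Among them are Hoxa11, Hoxb6, Hoxd4, Hoxd10, Hoxd12 and Hoxd13, detected on no array outside the fibroblast groups. The tested members had a median log2 difference of -1.75, or -1.43 with undetected genes at their bounds, and all genes had -0.01. On 22 of the 23 genes called, no R1 array reached the lowest MEF array, a count that was not made over all genes and is a description only. Hoxc4 and Hoxc13 were tested and not called, with log2 differences of 0.01 and -0.03.

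Among the paralogues numbered 9 to 13, which pattern the posterior trunk and the limbs, Hoxd10 fell furthest. Hoxd10 helps to set lumbar motor neuron and limb identity. Its log2 level was 8.53, 8.59 and 8.56 on the MEF arrays and 4.55, 4.69 and 4.45 on the R1 arrays, on none of which it was detected. The groups lay far apart, and R1 was at least 14.6-fold lower (log2 difference -4.00, SE 0.08). Hoxa11, which shapes the forearm, was at 6.34, 6.57 and 6.17 in MEF and at 4.31, 4.32 and 4.24 in R1, at least 3.19-fold lower. All MEF arrays stood above all R1 arrays for it. Hoxd12 and Hoxd13, genes of the digits, were at least 2.68-fold and 2.66-fold lower in R1. Hoxb9, a gene of the thoracic skeleton, was at least 2.69-fold lower. Hoxc9, which sets thoracic motor neuron identity, was detected on 2 R1 arrays and differed by -2.87 on the log2 scale (adjusted p = 5.02e-17).

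Smaller differences among these posterior genes were those of Hoxa9 (at least 1.71-fold lower), Hoxd9 (log2 difference -0.77), Hoxc10 (-0.76) and Hoxa13 (-0.67), which with Hoxd13 forms the digits and the lower gut tract. Hoxc10 was read by a pair of probes that disagreed in size. The probe used lay at 5.66, 5.77 and 5.71 in MEF and at 5.03, 4.93 and 4.89 in R1. The other probe lay at 6.09, 6.12 and 6.14 in MEF and was on no R1 array.

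The paralogues numbered 4 to 8, genes of the neck and thorax, showed large differences as well. Hoxc6, a thoracic gene, was at 10.11, 10.04 and 10.12 in MEF and at 6.07, 6.35 and 5.96 in R1, 15.6-fold lower (log2 difference -3.96, SE 0.13, adjusted p = 1.95e-19). Hoxa7, a gene of the upper trunk, was at 8.65, 8.58 and 8.60 in MEF and at 4.92, 5.02 and 5.10 in R1, 12.1-fold lower (adjusted p = 4.43e-20). Hoxa5, which is needed for lung and neck development, was at 9.29, 9.13 and 9.13 in MEF and at 5.74, 5.90 and 5.57 in R1, 10.9-fold lower (adjusted p = 9.57e-19). In all 3 genes every R1 array was detected and every one lay far below MEF.

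Hoxb4, best known for expanding blood stem cells, differed by -3.14 on the log2 scale. The differences were -2.49 for Hoxd8, -2.37 for Hoxb5 and -2.37 for Hoxb7, genes of the trunk. Hoxb6 and Hoxd4, which R1 did not show above background, were lower by at least 2.38-fold and 1.72-fold. Hoxa4 was the weakest call, with a log2 difference of -0.29 (adjusted p = 0.0494), overlapping arrays, and a call lost without R1 replicate 1 or 2 or MEF replicate 2 or 3.

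Among the paralogues numbered 1 to 3, genes of the hindbrain and the pharyngeal arches, 3 were tested. Hoxb2 was at 6.84, 6.81 and 7.10 in MEF and at 4.82, 4.72 and 4.88 in R1, with a log2 difference of -2.11 (SE 0.12, adjusted p = 5.83e-15). Hoxa2, which gives the second pharyngeal arch its identity, differed by -0.86 (adjusted p = 0.00019). Every MEF array was above every R1 array for both. Hoxb3 differed by -1.47 at the probe used (5.78, 6.11 and 5.86 in MEF, on no R1 array), whereas a second probe was at 4.68, 4.71 and 4.78 in MEF and at 4.88, 4.61 and 4.75 in R1. Under 5 alternative settings, the choice of probe by detection among them, the difference of the gene was between 0.02 and 0.09, with adjusted p from 0.495 to 0.917.

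The fibroblast markers moved with the Hox genes. All 11 fibroblast markers tested were lower in R1, and their summed level on the linear scale was 14900 to 16200 in MEF and 898 to 1060 in R1. Of 12 markers, 8 were nevertheless detected on all 3 R1 arrays and Col1a2, Postn and Lum on none. The part of fibroblast RNA in the Hox levels of R1 was not tested. Scaling arrays to equal medians in place of quantile normalization moved the median difference of all genes to 0.52 and the share of called genes that were higher from 51.1% to 72.2%, and 19 Hox genes were then lower and 0 higher.

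**Figure D2:**
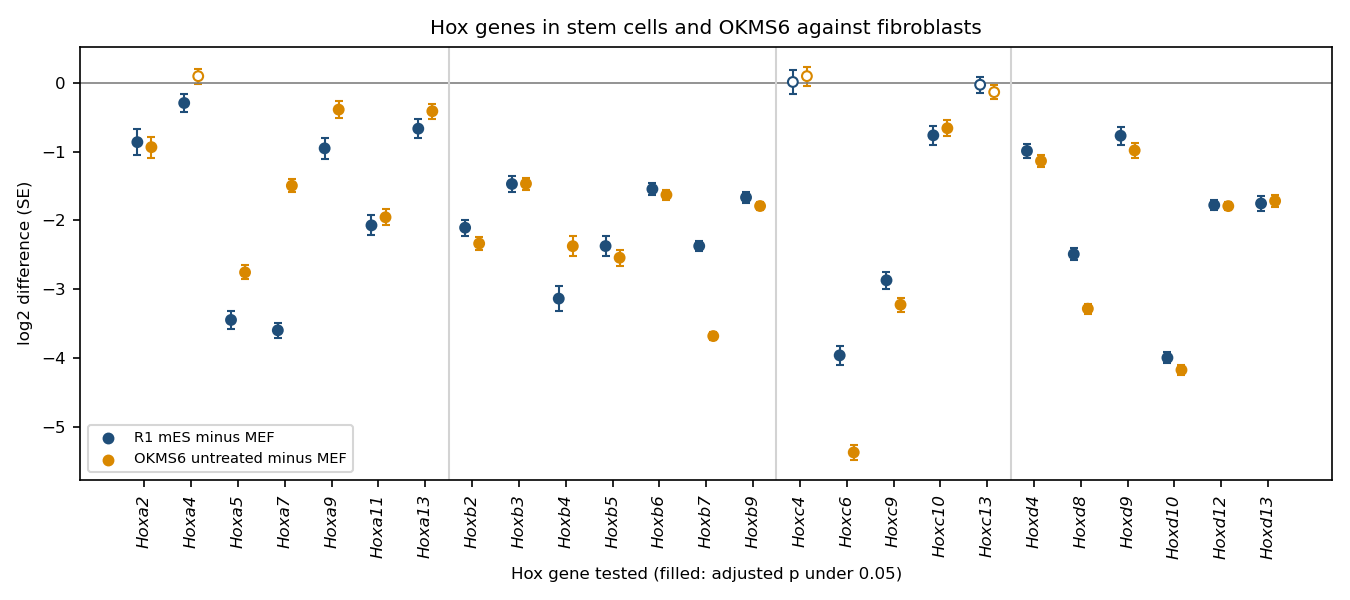
Log2 difference from MEF, with SE, of the 25 Hox genes tested, in R1 stem cells and in untreated OKMS6 cells (mean of 10, 24 and 48 h), in order of cluster and paralogue number. Filled points passed an adjusted p under 0.05, and Hoxa7 shows the widest gap between the lines, at -3.60 in R1 and -1.50 in OKMS6.

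OKMS6 descended from fibroblasts, and the next question was how much of the fibroblast Hox pattern it showed. In untreated OKMS6 cells, taken as the mean of the 10, 24 and 48 h groups, 22 of the 38 Hox genes were lower than in MEF and 0 were higher. Of all genes tested 71.7% were called, 32.8% lower and 38.8% higher. The tested members had a median log2 difference of -1.72, or -1.31 with 11 undetected genes at their bounds, and all genes had 0.05. As in R1, a member that passed the filter only through the fibroblasts had to differ. The count, the median and the differences of such members are therefore a description. The 22 genes were 6 of cluster A, 7 of B, 3 of C and 6 of D.

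In cluster C, Hoxc6 was near or within the background. It was at 4.73, 4.64 and 4.58 at 10 h, at 4.68, 4.70 and 4.46 at 24 h and at 5.03, 4.80 and 4.84 at 48 h. It was detected only at 48 h, on 3 of the 9 arrays averaged, so its log2 difference of -5.37 (SE 0.11, adjusted p = 1.95e-24) is given with no fold. Hoxc9 was on no OKMS6 array and at least 7.13-fold lower. In cluster D, Hoxd10 was at least 13.5-fold lower, Hoxd12 at least 2.47-fold, Hoxd13 at least 2.45-fold, Hoxd9 at least 1.80-fold and Hoxd4 at least 1.59-fold. Hoxd8 was lower (log2 difference -3.28) and was detected on 2 of the 9 arrays, both at 48 h, so no fold is given. Hoxd8 apart, no cluster D gene of the 6 found in MEF was called detected on an untreated OKMS6 array.

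In cluster B, Hoxb7 was on no OKMS6 array and at least 9.21-fold lower, Hoxb2 at least 4.31-fold, Hoxb9 at least 2.48-fold and Hoxb6 at least 2.19-fold. The difference of Hoxb3 was -1.47 at the probe used, but its call was lost under 5 of 25 alternatives, the other probe rule among them, where the adjusted p reached 0.967. Hoxb4 was the gene of this cluster found in every OKMS6 group. It was at 5.58, 5.17 and 5.36 at 10 h, at 5.66, 5.44 and 5.44 at 24 h and at 5.75, 6.10 and 6.13 at 48 h, beside 7.95, 8.10 and 7.96 in MEF, 5.19-fold lower (adjusted p = 7.49e-14). Hoxb5 was lower (log2 difference -2.54, adjusted p = 6.94e-17), and was detected on all 3 arrays at 10 h and on 0 at 24 h. Among the remaining genes of cluster C, Hoxc10 was lower (log2 difference -0.66, adjusted p = 1.02e-05) and was detected on all 3 arrays at 24 h. Hoxc4, a gene of the neck, was not called against MEF (0.10), at 5.06, 5.39 and 5.43 at 24 h and 4.81, 4.96 and 5.12 in MEF. Hoxc13, a gene of hair and nails, was on no untreated OKMS6 array and was not called (-0.14).

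Cluster A held the smallest called differences as well as genes detected throughout. Hoxa7 was at 6.74, 6.75 and 6.83 at 10 h, at 7.14, 7.05 and 6.89 at 24 h and at 7.60, 7.70 and 7.35 at 48 h, beside 8.65, 8.58 and 8.60 in MEF. It was lower than in MEF on every array, by 2.82-fold (log2 difference -1.50, SE 0.09, adjusted p = 6.48e-14). Hoxa5 was at 6.25, 6.42 and 6.31 at 10 h, at 6.38, 6.46 and 6.53 at 24 h and at 6.27, 6.61 and 6.64 at 48 h, 6.75-fold below MEF. Hoxa9 and Hoxa13 differed by only -0.39 and -0.41, and OKMS6 and MEF arrays overlapped. The call on Hoxa9, a gene of the posterior trunk, was lost without MEF replicate 3. Hoxa9 was at 4.96, 4.89 and 4.77 at 48 h beside 5.59, 5.20 and 5.61 in MEF, and its 24 h arrays reached into the range of MEF. The log2 difference of Hoxa4 was 0.10, and it was not called. Hoxa11 was on no OKMS6 array and at least 2.94-fold lower. Hoxa2 was lower as well (log2 difference -0.94, adjusted p = 4.56e-06).

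Of the 11 fibroblast markers tested, all were lower in OKMS6 than in MEF, and 6 were lower and 1 higher than in R1. Of 12 markers, 3 or 4 were detected on all 3 arrays of each OKMS6 group. Col1a2, Col3a1, Twist2, Postn, Pdgfrb and Lum were on none, and the summed level was 354 to 546. Hoxa5 and Hoxa7 were detected on every one of the same arrays, also at a detection p under 0.01. With arrays scaled to equal medians the difference of Hoxa7 from MEF was -0.52 in place of -1.50, the median of all genes moved to 0.42 and the share of called genes that were higher from 54.2% to 75.7%, and 19 Hox genes were lower and 0 higher.

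Against R1 stem cells, the Hox genes higher in OKMS6 were mostly of cluster A. Untreated OKMS6 differed from R1 in 12 of the 38 Hox genes, 25 of which were tested, beside 65.3% of all genes tested, with 6 higher (34.1% of all genes) and 6 lower (31.2% of all genes). The 6 higher were 5 genes of cluster A, Hoxa4, Hoxa5, Hoxa7, Hoxa9 and Hoxa13, and Hoxb4. Among them Hoxa4 was detected on all 3 arrays of no group. Only Hoxa5 and Hoxa7 were detected in every OKMS6 group at a detection p under 0.01. The 6 lower were Hoxb2, Hoxb7, Hoxc6, Hoxc9, Hoxd8 and Hoxd10, none from cluster A. Whether the clusters differ from each other was not tested. Hoxa7 stood out, 4.29-fold above R1 (log2 difference 2.10, SE 0.09, adjusted p = 7.14e-17), and its lowest OKMS6 array (6.74) was far above its highest R1 array (5.10). Hoxb4 and Hoxa5 were 1.70-fold and 1.62-fold higher, with no overlap of arrays. Hoxa9 was at least 1.31-fold higher, since it was on no R1 array.

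Of the 6 genes lower in OKMS6, Hoxb7 was at least 1.78-fold lower (adjusted p = 3.13e-16). Hoxc6 and Hoxd8 had log2 differences of -1.41 and -0.79, with most OKMS6 arrays (6 and 7 of 9) not above background. Hoxb7 lay at 5.55, 5.77 and 5.60 in R1 and between 4.25 and 4.43 on the untreated OKMS6 arrays. Hoxd10 was on no array of either group, so its call compares values within the background. Hoxc9 and Hoxb2 were each detected on 2 R1 arrays and on no OKMS6 array, and are given no fold because their bounds did not pass 1. The calls on Hoxa13, Hoxb2 and Hoxd10 depended on single arrays. That on Hoxa13 was lost without any of 9 arrays, that on Hoxb2 without any of 5 (R1 replicates 1 and 3 among them), and that on Hoxd10 without R1 replicate 2, where its difference was -0.11 in place of -0.18.

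**Figure D3:**
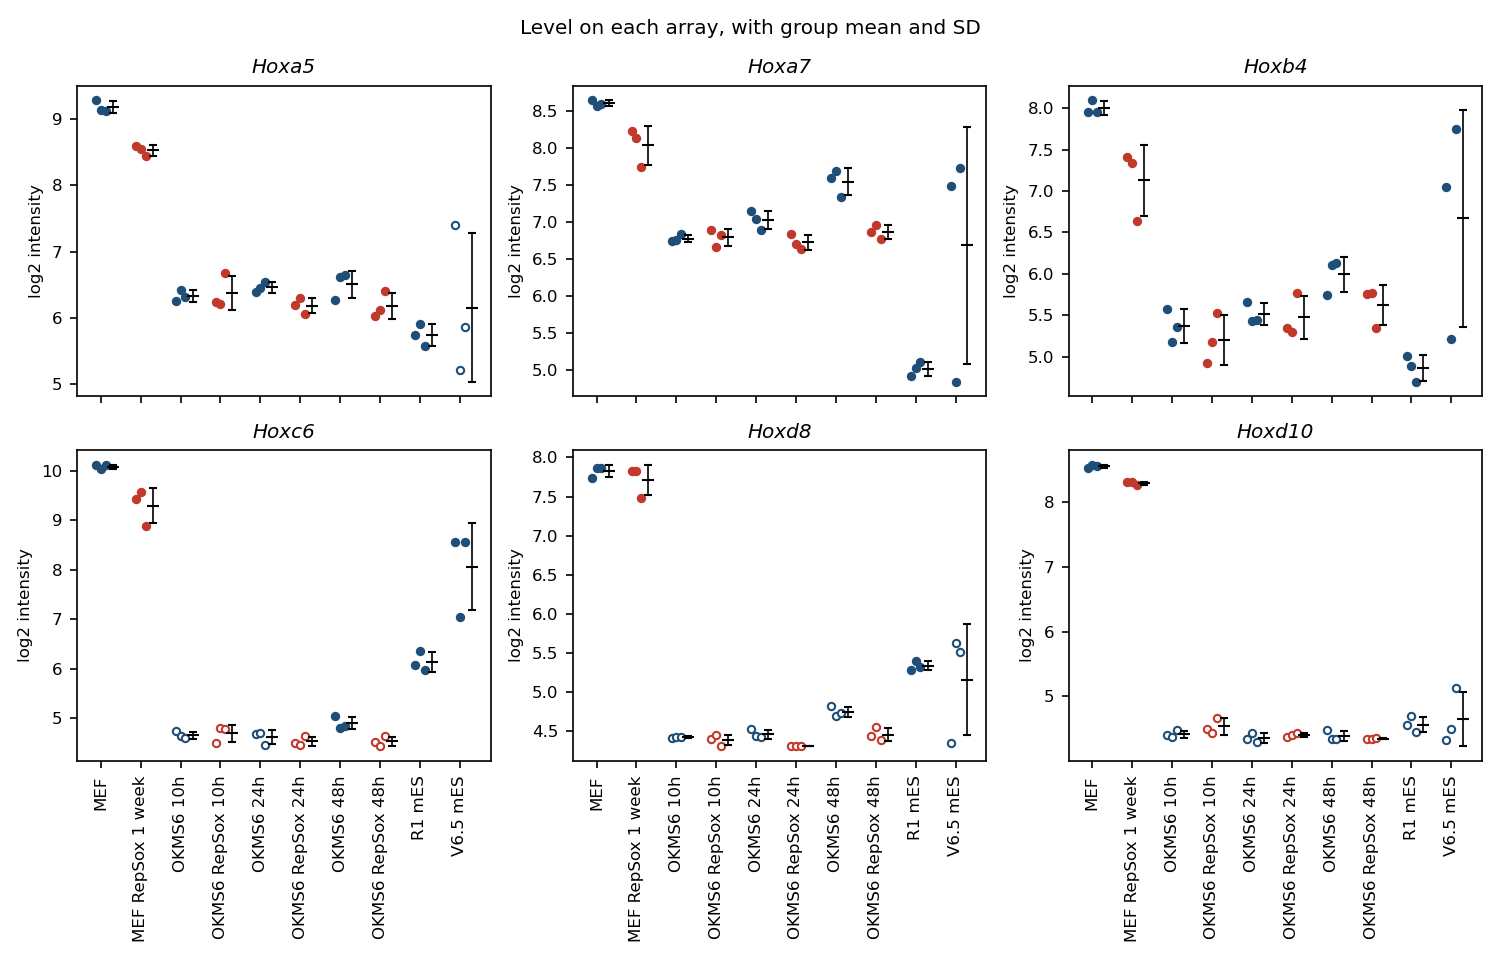
Log2 level of 6 Hox genes on each array (points; filled where the gene was detected on all 3 arrays of the group, red for RepSox-treated groups), with the group mean and SD (black), in 10 groups. The group means of Hoxa7, Hoxa5 and Hoxb4 in OKMS6 all lie between those of MEF and R1, Hoxd10 was detected on no OKMS6 or R1 array, and V6.5 replicates 1 and 3 lie apart from replicate 2.

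RefSeq promoter windows, 250 bases before to 50 after the annotated start (GRCm38.p6), were at hand for 22 of the 38 members, 24 windows in all. These windows were rich in CG dinucleotides, the substrate of DNA methylation and a recruiter of Polycomb. The median was 14.5 CG per window, against 7 over all 32851 windows of the same length, with an observed-over-expected ratio of 0.626 against 0.384. The letters AGGTCA, the core letters bound by retinoic acid receptors, whose ligand switches Hox clusters on from the head end, were found on either strand in 7 of 24 Hox windows (29.2%) and in 16.3% of all windows. TGATNNAT, a form of the joint Hox and Pbx site, was in 16.7% against 8.85%, and CAGACA, a Smad-type sequence, in 16.7% against 21%. A match of letters is a description, not a site. The windows of a pair of genes detected on every OKMS6 array (Hoxa5 and Hoxa7) and of a pair detected on every MEF array but seen on few or no OKMS6 arrays (Hoxd8 and Hoxd10) are shown 5′ to 3′ on the gene's strand, with AGGTCA or its reverse complement TGACCT in capitals. Hoxa5 is at chr6:52204538-52204837 (minus strand, 29 CG), Hoxa7 at chr6:52218524-52218823 (minus strand, 9 CG), Hoxd8 at chr2:74704365-74704664 (plus strand, 6 CG) and Hoxd10 at chr2:74691641-74691940 (plus strand, 22 CG).
Hoxa5: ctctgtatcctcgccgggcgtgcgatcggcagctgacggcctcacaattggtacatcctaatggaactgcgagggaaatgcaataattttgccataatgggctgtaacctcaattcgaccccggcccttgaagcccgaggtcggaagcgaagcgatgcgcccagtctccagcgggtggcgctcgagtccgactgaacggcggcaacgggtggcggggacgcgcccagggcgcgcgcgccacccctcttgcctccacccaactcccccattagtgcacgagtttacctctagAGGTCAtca
Hoxa7: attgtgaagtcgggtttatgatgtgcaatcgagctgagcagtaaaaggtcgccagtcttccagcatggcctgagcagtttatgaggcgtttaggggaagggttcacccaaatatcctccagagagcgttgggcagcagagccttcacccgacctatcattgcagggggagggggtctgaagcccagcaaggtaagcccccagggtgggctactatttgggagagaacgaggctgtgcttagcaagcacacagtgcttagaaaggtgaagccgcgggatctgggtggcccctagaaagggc
Hoxd8: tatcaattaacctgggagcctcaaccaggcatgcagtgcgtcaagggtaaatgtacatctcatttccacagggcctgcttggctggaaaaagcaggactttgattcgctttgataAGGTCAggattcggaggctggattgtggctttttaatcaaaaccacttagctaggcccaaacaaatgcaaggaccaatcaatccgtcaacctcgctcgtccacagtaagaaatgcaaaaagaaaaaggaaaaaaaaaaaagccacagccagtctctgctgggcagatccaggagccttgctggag
Hoxd10: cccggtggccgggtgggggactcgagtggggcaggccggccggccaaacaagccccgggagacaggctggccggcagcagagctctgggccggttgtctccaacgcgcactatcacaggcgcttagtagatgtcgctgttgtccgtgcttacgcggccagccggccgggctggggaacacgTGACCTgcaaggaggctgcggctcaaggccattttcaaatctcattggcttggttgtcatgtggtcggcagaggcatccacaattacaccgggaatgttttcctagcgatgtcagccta
Neither the CG count nor the capitals divided the pairs. The counts were 29 and 9 CG for Hoxa5 and Hoxa7 and 6 and 22 for Hoxd8 and Hoxd10, and Hoxa7 alone held no match. These pairs are shown as a description and say nothing of the other members.

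In OKMS6 without RepSox, Hoxa7, Hoxb4, Hoxb5 and Hoxd8 differed between 10, 24 and 48 h (4 of 38, moderated F test in limma, adjusted p under 0.05), where 45% of all genes did. The level of Hoxa7 was 6.77 ± 0.05 (SD, n = 3) at 10 h, 7.03 ± 0.13 at 24 h and 7.55 ± 0.18 at 48 h (adjusted p = 1.52e-05), and all 48 h arrays were above the rest. One of them, replicate 3, is an array whose column is exchanged with that of its RepSox counterpart (6.77) in the authors' processed matrix. With that matrix the range of Hoxa7 over the times was 0.55 on the log2 scale in place of 0.77, and over all alternatives its adjusted p reached 0.389, with V6.5 in the fit. Hoxb4 was highest at 48 h too (adjusted p = 0.0153), a call lost without replicate 2 or 3 of that group, while Hoxb5 was highest at 10 h (adjusted p = 0.00512). Hoxd8 was at 4.82, 4.69 and 4.73 at 48 h, and was detected at no other time.

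Few Hox genes were called with RepSox in OKMS6, and few could have been seen to fall. Of the 38, 25 were tested, and 6 at 10 h, 7 at 24 h and 6 at 48 h were detected on all 3 arrays without RepSox. At 10 h 0 of 38 passed the test, beside 12.6% of all genes (7.27% higher and 5.35% lower), and 2 had an unadjusted p under 0.05. Differences ran from -0.28 to 0.12. At 24 h 0 passed, beside 24.0% of all genes (13% higher and 11% lower), and 4 had an unadjusted p under 0.05. The nearest to the threshold was Hoxa7 (-0.30, adjusted p = 0.0546), whose treated arrays all lay below the untreated ones. With arrays scaled to equal medians the median of all genes at 24 h was -0.18, and 15.1% of called genes were higher in place of 54.2%.

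At 48 h 4 of 38 Hox genes were lower with RepSox and 0 were higher, beside 32.7% of all genes called, 16.9% lower and 15.8% higher. Hoxa7 was at 7.60, 7.70 and 7.35 without RepSox and at 6.86, 6.96 and 6.77 with it, 1.60-fold lower (log2 difference -0.68, SE 0.11, adjusted p = 2.99e-05), and the groups did not overlap. Hoxc6 was detected on all 3 untreated arrays and on 0 treated ones, at least 1.08-fold lower (adjusted p = 0.0351). Hoxd8 (-0.29, adjusted p = 0.0109) was on no treated array. Hoxa5 differed by -0.33 (adjusted p = 0.0448), with overlapping arrays. Hoxb4 was at 5.75, 6.10 and 6.13 without and 5.76, 5.77 and 5.35 with RepSox and did not pass (adjusted p = 0.132).

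The replicate 3 arrays at 48 h bear on these values, because the authors' processed matrix holds their columns exchanged against the scanner table. Without both arrays 1 of the 4 calls remained, that on Hoxa7. With the matrix under its own column names 0 Hox genes were called in limma, as were 0 of all 10614 genes, so that count says nothing of the Hox genes in particular. The Hox count was 0 also where V6.5 shared the fit. Leaving out single arrays ended the calls on Hoxa5 (untreated replicate 2 or 3, treated replicate 1 or 2), Hoxc6 (untreated 1 or 3, treated 1 or 2) and Hoxd8 (untreated 1, treated 3). The share of called genes that were higher at 48 h was 48.4%, and 35.5% with median scaling. Marker sums moved too at 48 h. The 10 stem cell markers summed to 4110 to 5440 without and 2570 to 3120 with RepSox, with Esrrb and Dppa4 on none of these arrays. Of the 10, 3 were higher with RepSox (Nanog by 2.85, Dppa5a by 2.13 and Sall4 by 0.51 on the log2 scale) and 4 were lower, with Tdgf1 at -2.73, Pou5f1 at -1.10, Utf1 at -1.03 and Fgf4 at -0.50. The 6 endothelial markers summed to 960 to 1110 without and 405 to 462 with it, with Cdh5 on none, and the 6 smooth muscle markers to 459 to 536 and 1310 to 1370, with Myh11, Cnn1, Tagln and Lmod1 on none. Of the smooth muscle markers Acta2 was higher (2.14) and Mylk lower (-2.67). The 12 fibroblast markers summed to 478 to 536 without and 354 to 381 with RepSox. Col1a1, Col1a2, Col3a1, Twist2, Postn, Pdgfrb and Lum were on none of these arrays. Of 11 fibroblast markers tested 2 were lower (Thy1 at -1.27 and Fbln2 at -0.76) and 0 higher. Of 2 blood markers tested 1 was lower (Laptm5 at -1.15). Of 5 epithelial ones 1 was higher (Cdh1 at 0.88) and 1 lower (Krt8 at -1.37). The part of all these markers in the Hox values was not tested.

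After 1 week of RepSox, 14 of the 38 Hox genes were lower in fibroblasts than in untreated MEF and 0 were higher. RepSox and time in culture cannot be told apart here, since no time is stated for MEF. Of the 38, 25 were tested, and of all genes tested 28.3% were called, 15.5% lower and 12.8% higher. By cluster the 14 were 2 of A, 6 of B, 3 of C and 3 of D, so 6 of the 7 cluster B genes detected in MEF were among them. The tested members had a median log2 difference of -0.39, and all genes had -0.02. For 13 of the 14 no treated array reached the lowest untreated one. That count was not made over all genes, so it says nothing of the Hox genes in particular.

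Hoxd12 had the largest difference. It was at 6.13, 6.11 and 6.09 without RepSox and at 4.85, 4.75 and 4.55 with it (log2 difference -1.39, SE 0.08). With RepSox it was detected on 1 array. It passed the detection filter only through the untreated arrays and so had to differ. Its difference is a description, given with no fold. Hoxb2 was at 6.84, 6.81 and 7.10 without and at 5.45, 5.86 and 5.53 with RepSox, 2.46-fold lower (adjusted p = 9.01e-10). The treated arrays of both genes lay well below every untreated array. Hoxb4 was at 7.95, 8.10 and 7.96 without and at 7.41, 7.34 and 6.64 with RepSox, 1.83-fold lower (adjusted p = 0.000453), the third treated array lying apart from the other two. Hoxc6 was 1.73-fold lower, Hoxc9 1.58-fold and Hoxa5 1.57-fold. Hoxb3 was 1.61-fold lower at the probe used, but its call was lost under 6 of 19 alternatives, the other probe rule among them, where the log2 difference reached -0.06 and the adjusted p 0.85.

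The differences of the remaining called genes were smaller, with Hoxa7 1.49-fold lower, Hoxb7 1.48-fold, Hoxb5 1.46-fold, Hoxc10 1.43-fold, Hoxb6 1.35-fold, Hoxd13 1.31-fold and Hoxd10 1.2-fold. The neighbours of Hoxd12 differed less in size: Hoxd13 was at 6.05, 6.01 and 6.24 without and at 5.48, 5.58 and 6.06 with RepSox, and Hoxd10 at 8.53, 8.59 and 8.56 without and 8.32, 8.31 and 8.27 with it. For Hoxd13 the groups overlapped. Hoxb9 (-0.16), Hoxa11 (-0.12), Hoxd8 (-0.11), Hoxd4 (-0.04) and Hoxd9 (0.13) did not pass. The call on Hoxd10 was lost without MEF replicate 2 and that on Hoxd13 without MEF replicate 3 or treated replicate 1 or 2, and the difference of Hoxc9 was -0.43 in place of -0.66 without treated replicate 3.

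Other markers moved in the same cultures. The summed level of 5 adipocyte markers was 354 to 401 in MEF and 9240 to 13800 with RepSox, with Adipoq, Lpl, Pparg and Plin1 higher and Fabp4 on none of the arrays. The smooth muscle markers summed to 15700 to 16700 without and 19200 to 20600 with RepSox. Of 5 tested 3 were higher, Myh11 by 4.30, Mylk by 3.22 and Lmod1 by 1.94 on the log2 scale, and Acta2 and Tagln were not called. Of 11 fibroblast markers tested 4 were higher and 4 lower (summed level 14900 to 16200 without and 11100 to 17200 with RepSox), with log2 differences of -2.83 for Col1a2, -2.81 for Fbln2 and 1.01 for Dcn. Both blood markers tested were lower (Lyz2 at -1.69 and Laptm5 at -0.97). Of 3 endothelial markers tested 1 was higher (Esam at 2.04), and of 5 epithelial ones 1 was higher (Krt18 at 0.73). The part of all these markers in the Hox differences was not tested. With median scaling 8 Hox genes were lower, and 59.1% of called genes were higher in place of 45.2%. With V6.5 in the fit, 5 were lower.

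The RepSox effect differed between fibroblasts at 1 week and OKMS6 at 48 h for 8 of 38 Hox genes, each more negative in fibroblasts, beside 33.3% of all genes that differed, 16.9% more negative and 16.4% more positive. Cell type and duration cannot be told apart in this comparison. The 8 were Hoxb2 (difference of log2 effects -1.49, SE 0.16, adjusted p = 5.15e-08), Hoxd12 (-1.34), Hoxb3, Hoxc9, Hoxb7, Hoxc10, Hoxb5 and Hoxb6. Hoxd12 passed the detection filter only through untreated MEF, so its value is a description. Of the 8, Hoxb2, Hoxb6, Hoxb7, Hoxc9 and Hoxd12 were on no OKMS6 array and could not have been seen to fall there. None of the 8 was detected on all 3 untreated OKMS6 arrays at 48 h, so a fall of the others could hardly be seen either. Hoxa5 and Hoxa7, detected in both kinds of cell and lower with RepSox in both, had no difference of effect that passed the test (-0.32, SE 0.18, and 0.11, SE 0.16). The call on Hoxb3 was lost under 6 of 25 alternatives, the other probe rule among them, with a value of up to -0.22 and an adjusted p of up to 0.617. The calls on Hoxb5 and Hoxc10 were each lost without any of several single arrays (7 and 5), and without untreated OKMS6 replicate 3 the value of Hoxc10 was -0.36 in place of -0.55. The value of Hoxc9 was -0.37 in place of -0.59 without treated fibroblast replicate 3. The share of called genes with a more positive effect in fibroblasts was 49.2%, and 68.1% with median scaling.

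**Figure D4:**
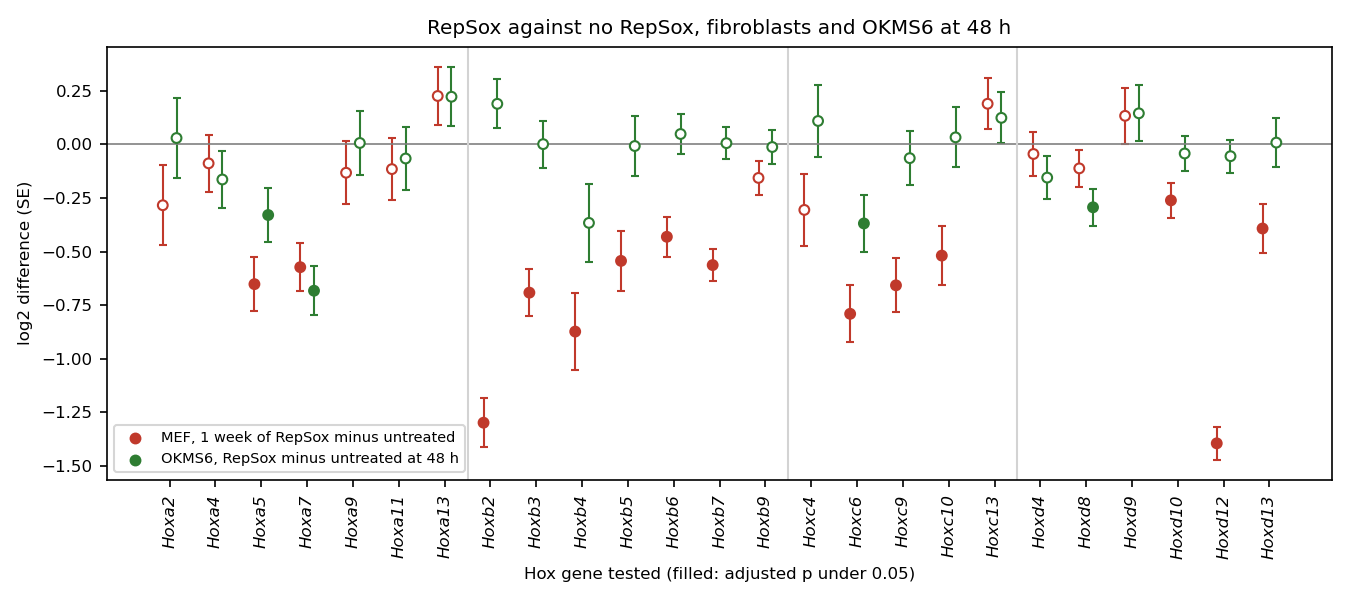
Log2 difference, with SE, between RepSox-treated and untreated cells for the 25 Hox genes tested, in fibroblasts after 1 week and in OKMS6 cells at 48 h, by cluster. Filled points passed an adjusted p under 0.05. Hoxd12 and Hoxb2 are lowest in fibroblasts, at -1.39 and -1.30, and lie near 0 in OKMS6, where neither was detected.

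On its own platform the RepSox iPS line had 13 of 36 Hox genes on all 3 arrays (background 54.4%), among them Hoxa5, Hoxa7, Hoxb4, Hoxb5, Hoxb7, Hoxc6, Hoxd8 and Hoxd9, which R1 showed too. Hoxc6 was at 8.76, 9.01 and 8.70. Fibroblast markers were present as well: all 12 were detected on the 3 iPS arrays, with a summed level of 5530 to 6410, beside 9 of 9 stem cell markers. Their part in the Hox readings was not tested, and feeder cells, platform and line cannot be told apart.

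Partners and regulators of Hox proteins were read beside the members. Their counts stand beside 70.1% of all genes called in R1 against MEF, 71.7% in OKMS6 against MEF, 32.7% with RepSox in OKMS6 at 48 h and 28.3% with RepSox in fibroblasts. Among the DNA-binding cofactors of the Pbx and Meis families, 5 of 7 tested were lower and 1 higher in R1 than in MEF, with Meis2 at -2.12 and Meis1 at -0.70 and Pbx2 at 0.76 on the log2 scale. In untreated OKMS6 1 was higher and 3 were lower than in MEF. At 48 h 3 of 7 were higher with RepSox in OKMS6, with Meis2 at 1.06 and Meis1 at 0.95. In fibroblasts 2 were lower with RepSox, Pknox1 (-0.61) and Meis1 (-0.45). The effect on Meis1 in fibroblasts at 1 week minus that in OKMS6 at 48 h was -1.40 (adjusted p = 5.62e-09), with cell type and duration not to be told apart.

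Of 23 Polycomb genes tested, 14 were higher and 5 lower in R1 than in MEF, and 11 higher and 4 lower in OKMS6, in the latter a smaller share than of all genes. Cbx7, the chromobox protein of stem cell Polycomb complexes, was higher in R1 by 4.81 and Mtf2, a partner of the histone methyltransferase complex, by 4.14. Phc1 and Ezh2, the catalytic subunit, were higher in OKMS6 than in MEF by 3.06 and 2.38. With RepSox 5 of the 23 were called in fibroblasts, also a smaller share than of all genes, 3 of them higher, with Pcgf5 at 0.98 and Ezh2 at 0.55. Of 10 genes of the opposing Trithorax group and the H3K27 demethylases, 8 were higher and 1 lower in R1 and 9 higher and 1 lower in OKMS6. Ash2l, Psip1 and Wdr5 were higher in R1 by 2.64, 2.53 and 2.40. In fibroblasts the demethylase gene Kdm6b was lower with RepSox (-1.18, adjusted p = 0.000586), and of the 10 genes 1 was higher and 2 were lower.

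Of 11 signals and factors upstream of Hox genes, 4 were higher and 3 lower in R1 than in MEF, beside 35.9% higher and 34.3% lower of all genes. Crabp1 and Crabp2 encode proteins that bind retinoic acid in the cell. With RepSox Crabp2 was lower in fibroblasts (-2.59), and both genes were lower in OKMS6 at 48 h (-1.85 and -1.47). Of 8 other positional and limb factors tested, 0 were lower with RepSox in fibroblasts and 3 were higher, beside 12.8% of all genes. These 3 were Msx2 (0.78), Shox2 (0.57) and Tbx2 (0.55). They moved the opposite way to Hoxd12 and Hoxb2 in the same arrays. Of 16 genes flanking the clusters that were tested, 8 were higher and 5 lower in R1 than in MEF (35.9% and 34.3% of all genes). With RepSox in fibroblasts 2 were higher and 5 lower (12.8% and 15.5% of all genes). Skap2 and Snx10, which flank cluster A in the RefSeq gene order (GRCm38.p6), were lower with RepSox in fibroblasts (-0.95 and -0.83), while Evx1 and Hibadh, which lie beyond Hoxa13, were at -0.01 (not passed) and 0.39.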

How the data were processed

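Total RNA of 33 samples in 11 groups of 3 was read on Illumina bead arrays. The deposited tables hold, per probe, the intensity and its detection p-value as the authors exported them, and per the submitters' processing notes BeadStudio was used, with no version or settings stated. The deposited intensity of the 30-array platform (25697 probes) was background-corrected and quantile-normalized with neqc (offset 16, background inferred from the detection p-values) in limma 3.58.1 under R 4.3.3. A probe was kept if its detection p was under 0.05 on 3 or more arrays (15635 probes, 10614 genes), and each gene was represented by its probe of highest mean. A linear model of 9 groups on 27 arrays, V6.5 left out for its dim arrays, had 18 residual degrees of freedom, and limma's moderated tests were adjusted by Benjamini-Hochberg over all 10614 genes, with a threshold of 0.05. The 3 iPS arrays (24613 probes) were normalized on their own. A gene undetected on every array of the dimmer group has only a bound, "at least N-fold", which sets the bright mean against, per array, the higher of the lowest signal among detected probes and the probe's own. The intensities carry no read depth, and the number of arrays limits the precision.

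Groups were taken from the labels. Every member detected on all 3 arrays of a group or changed in a comparison was given values, and of each other list up to 4 genes a comparison with the smallest adjusted p, plus genes of other cell types. Members and lists were chosen with earlier results of these data known. Same-numbered replicates correlated between -0.317 and 0.338 over 5 pairs of groups. Every correlation was over 0.1 in 1 pair of groups, OKMS6 at 48 h, where that of the replicate 3 arrays was the highest. The main tests paired no arrays, and pairing by number entered only the replicate block. The authors' processed matrix (column medians 10.7 and 17.6 on the 2 platforms, method not stated) served as an alternative. In it the columns of the replicate 3 arrays at 48 h, untreated and treated, match each other's scanner intensities. Other alternatives were median scaling, no background correction, no or a stricter detection filter, another probe rule, V6.5 in the fit or out before normalization, array weights, a replicate block, only the groups compared, and each array left out. The scripts were tested on simulated data.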

Additional observations from a re-analysis of the deposited data

Results flagged for a closer look

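The change with RepSox in fibroblasts at 1 week minus that in OKMS6 at 48 h passed the test for 8 Hox genes. On the log2 scale it was -1.49 for Hoxb2, -1.34 for Hoxd12, -0.69 for Hoxb3, -0.59 for Hoxc9, -0.57 for Hoxb7, -0.55 for Hoxc10, -0.54 for Hoxb5 and -0.48 for Hoxb6. Of these genes Hoxb2, Hoxb6, Hoxb7, Hoxc9 and Hoxd12 were on no OKMS6 array, so no fall could have been seen there. None of the 8 was detected on all 3 untreated OKMS6 arrays at 48 h. The call on Hoxb3 was lost with the other probe rule.

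V6.5 stem cells, which entered no test, had 6 Hox genes on all 3 arrays beside 30.4% of all genes. The mean log2 levels were 7.05 for Hoxa13, 6.68 for Hoxa7, 6.67 for Hoxb4, 6.20 for Hoxc10, 8.06 for Hoxc6 and 6.99 for Hoxc9. These means rest on the dim arrays. Hoxa13 was at 8.27 and 7.85 on replicates 1 and 3 and at 5.03 on replicate 2, and Hoxa7 at 7.49 and 7.73 against 4.83. Hoxc9 was at 7.92 and 7.86 against 5.18, Hoxc10 at 6.66 on replicate 1 against 4.94, Hoxb4 at 7.05 and 7.75 against 5.21, and Hoxc6 at 8.57 on both against 7.04.

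The RepSox iPS line, on its own platform, had 13 Hox genes on all 3 arrays. In cluster A the mean log2 levels were 6.23 for Hoxa5 and 5.65 for Hoxa7. In cluster B they were 5.65 for Hoxb1, 6.49 for Hoxb2, 7.18 for Hoxb4, 6.0 for Hoxb5, 7.51 for Hoxb7 and 5.45 for Hoxb9. In clusters C and D they were 8.82 for Hoxc6, 6.57 for Hoxc9, 6.43 for Hoxc13, 6.77 for Hoxd8 and 5.93 for Hoxd9. Hoxb1, the gene of the fourth hindbrain segment, was on none of the 30 arrays of the other platform.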

How the results depend on the processing

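Against 23, 22 and 12 Hox genes called in R1 against MEF, OKMS6 against MEF and OKMS6 against R1, single arrays left out gave 22 to 23, 21 to 22 and 10 to 12, and a replicate block 22, 22 and 11. The RepSox counts moved more. At 10 h the count of 0 was 1 without background correction, 1 with the processed matrix without both 48 h arrays numbered 3, 2 with array weights and 0 with any array left out. At 24 h the count of 0 was 2 with median scaling, 1 with that matrix, 1 without those arrays, 7 with array weights, 1 with the replicate block and 0 to 2 with an array left out. At 48 h the count of 4 was 0 with the processed matrix (0 of all 10614 genes passed there), 1 without both arrays, 2 without a detection filter, 0 with all 30 arrays, 2 to 3 with an array left out, and 4 with the replicate block, also over the 48 h arrays alone, a setting chosen after seeing the data. In fibroblasts the count of 14 was 8 with median scaling, 5 with all 30 arrays, 13 to 14 with an array left out and 14 with the block. The difference of effects, 8 genes, was 5 without background correction, with median scaling and with the processed matrix, 4 with the matrix without both arrays, 2 with all 30 arrays, 6 to 9 with an array left out and 8 with the block. The count between times, 4, was 2 with the matrix, 1 with all 30 arrays, 8 with array weights, 7 with only the groups compared, 3 to 5 with an array left out and 4 with the block. At a detection p under 0.01 the members detected were 4 in R1, 3 in V6.5, 2 in OKMS6 at 10 h and 2 with RepSox, 3 at 24 h and 2 with RepSox, and 3 at 48 h. On at least 2 of 3 arrays they were 8 with RepSox at 24 h, 10 at 48 h and 8 with RepSox. Neither set of detection counts was made over all genes. Hoxb3 in R1 against MEF reversed, to 0.02226 without background correction, 0.09305 with median scaling, 0.02632 with either form of the matrix and 0.02434 with the probe of lowest summed detection p. Where no value is given for a cause, the cause was not tested. With 3 arrays a group and low signals, values near background carry little order.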
